A study of Mus musculus with 8 samples.

Results

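The visual cycle genes examined here were 9 genes chosen by name, *Rlbp1*, *Rbp3*, *Rdh5*, *Rdh8*, *Rdh10*, *Rdh12*, *Abca4*, *Rpe65* and *Rgr*, out of the 54532 genes in the count table, and all 9 were found in it. Bulk RNA-seq gave their levels in mouse retinas of 4 control and 4 *Mettl3*-CKO samples, and the comparison asked how loss of *Mettl3*, which encodes the catalytic subunit of the m6A-writer complex, altered their expression. *Mettl3*-CKO mice carried floxed alleles of *Mettl3* on both chromosomes together with *Six3-Cre*, which acts in retinal progenitor cells from the embryonic stage on. The study describes the loss of METTL3 as efficient in the central retina. The labels name the other group only as control, without its alleles. The labels give the age of both groups as postnatal day 7, and the study's methods name a day earlier. The study describes its replicates as biological, and the sample labels do not name the animal behind each library.

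Opsins in rods and cones hold a light-sensitive chromophore made from vitamin A, and a photon turns it from a bent form into a straight one. The visual cycle returns it to the bent form. On the photoreceptor side, ABCA4 moves retinal across the disc membrane, and RDH8 and RDH12 reduce it to retinol. IRBP, encoded by *Rbp3*, carries retinoids in the space between cells. In the pigment epithelium the isomerase RPE65 and the dehydrogenase RDH5 complete the cycle. RLBP1, the retinal-binding protein also called CRALBP, is made in both the pigment epithelium and Müller glia, the main glial cell of the retina. RGR, an opsin that binds the straight form, and RDH10, a retinol dehydrogenase, are also found in both.

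*Rbp3* and *Rlbp1* were lower in *Mettl3*-CKO retinas, and *Rgr* was higher. The falls amounted to 1.76-fold for *Rbp3* and 2.42-fold for *Rlbp1*, and the rise of *Rgr* to 1.6-fold. Both falls were called in all 8 fits that left out 1 sample, but the rise of *Rgr* in only 1 of 8. Of the 9 genes, 8 had enough counts to be tested, and the other, *Rpe65*, was nearly absent from all samples. At an adjusted p-value under 0.05 from edgeR's quasi-likelihood test, 2 of the 8 were called lower, where 4.05% of the 17998 genes tested were, and 1 was called higher, where 6.49% were. The other 5 did not pass. The median log2 fold change of the 8 was -0.40, against -0.01 over all genes tested. In bulk RNA, fewer cells of a type and less RNA per cell cannot be told apart.

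Total counts ranged from 16227095 to 20281517 per sample, so that 3 counts correspond to between 0.147 and 0.184 CPM, the count scaled to the library total after edgeR's TMM adjustment. *Mettl3* itself ranged from 21.1 to 29.6 CPM in the *Mettl3*-CKO group and from 29.3 to 33.8 CPM in the controls (log2 fold change -0.38, adjusted p = 0.0602, edgeR). One *Mettl3*-CKO sample thus lay within the range of the controls. The counts are of whole transcripts and do not separate the floxed exons. The libraries held retinal RNA: the rod transcription factor gene *Nr2e3* was at 487 to 1167 CPM, and *Opn1sw*, the short-wavelength cone opsin gene, at 156 to 206 CPM. Control replicate 4 also held lens RNA, with a summed level of 11 lens genes of 4478 CPM, against 4.56 to 78 CPM in the other controls. Leaving lens and erythrocyte genes out of the library sizes changed no call among the 8 genes.

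The promoters of these genes are shown because many photoreceptor genes share a short DNA word there, TAATCC, which is bound by the homeodomain factors CRX and OTX2. RefSeq promoter windows on GRCm38.p6 were used for 8 of the 9 genes, the promoter of *Rdh10* was not analysed here, and the 250 bases before each start were searched on both strands. TAATCC, or GGATTA as it reads on the other strand, was found in 4 of the 8, *Rbp3*, *Abca4*, *Rpe65* and *Rgr*, and in 6.252% of 32851 mouse promoters. The word did not follow the photoreceptor genes among the 8. It was missing from the windows of *Rdh8* and *Rdh12*, and *Rpe65* and *Rgr* are genes of the pigment epithelium. The stretches that hold it are printed 5′ to 3′ on the gene's own strand, with the match in capitals, and *Rlbp1* is added as the gene with the largest fold change, whose window held no match.
Rbp3, chr14:33953894-33953969, plus strand: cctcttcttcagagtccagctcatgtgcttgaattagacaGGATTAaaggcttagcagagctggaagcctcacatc
Abca4, chr3:122044362-122044437, plus strand: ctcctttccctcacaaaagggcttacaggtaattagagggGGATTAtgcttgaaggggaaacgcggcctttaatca
Rpe65, chr3:159599099-159599174, plus strand: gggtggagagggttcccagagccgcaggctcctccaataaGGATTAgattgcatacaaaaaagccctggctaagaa
Rgr, chr14:37049146-37049221, minus strand: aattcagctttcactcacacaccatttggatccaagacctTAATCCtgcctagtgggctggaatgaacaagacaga
Rlbp1, chr7:79387049-79387124, minus strand: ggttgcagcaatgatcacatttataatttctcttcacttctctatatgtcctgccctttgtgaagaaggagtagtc
The first base of the match lay 69 bases before the start of *Rbp3*, 58 before that of *Abca4*, 42 before that of *Rpe65* and 167 before that of *Rgr*. These 4 genes did not move together: *Rbp3* was called lower, *Rgr* higher, *Abca4* neither, and *Rpe65* was too low to test. A second word, TGCTGA, part of the sequence bound by the rod factor NRL, was found in *Rlbp1*, *Rbp3* and *Rdh12* and in 16.08% of the 32851 promoters. The word ACAATGG, bound by SOX factors such as SOX9 of Müller glia, was found only in *Rdh5* among the 8 and in 3.02% of promoters. The RefSeq start used for *Rdh5* lies 3591 bases inside the gene as counted, so that its window is within the gene. Each match describes letters in the window, not a bound site.

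*Rbp3* lies at chr14:33954003-33964216 on the plus strand of GRCm38 (ENSMUSG00000041534). It was at 765, 844, 978 and 1117 CPM in replicates 1 to 4 of the *Mettl3*-CKO group and at 1872, 1506, 1559 and 1564 CPM in control replicates 1 to 4. Every *Mettl3*-CKO sample was below every control. The means were 926 ± 154 CPM and 1625 ± 166 CPM (SD, n = 4 each), and the log2 fold change was -0.81 with a 95% confidence interval of -1.08 to -0.55 (standard error 0.12, adjusted p = 0.00189, edgeR). It was called lower in all 8 fits that left out 1 sample.

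*Abca4* lies at chr3:122044443-122180123 on the plus strand (ENSMUSG00000028125). It was at 76.6, 63.8, 100.3 and 104 CPM in the 4 *Mettl3*-CKO libraries and at 97.2, 81.2, 77.6 and 85.8 CPM in the controls. The *Mettl3*-CKO samples spread on both sides of the controls, with 2 below and 2 above all of them. The log2 fold change was 0.01 with a 95% confidence interval of -0.30 to 0.33 (adjusted p = 0.966, edgeR), and its sign turned when single samples were left out, between -0.09 and 0.14. Pseudogenes on the opposite strand overlap the gene but share no exon bases with it.

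*Rdh8*, the retinol dehydrogenase of photoreceptor outer segments, lies at chr9:20818503-20826117 on the plus strand (ENSMUSG00000053773). Its level was 5.53, 3.77, 4.99 and 7.13 CPM in the 4 *Mettl3*-CKO libraries and 11.4, 6.98, 5.93 and 6.28 CPM in the controls. *Rdh12*, whose product reduces retinal and other aldehydes in photoreceptor inner segments, lies at chr12:79208914-79222665 on the plus strand (ENSMUSG00000021123). It was at 9.84, 9.28, 13.2 and 18.8 CPM in the 4 *Mettl3*-CKO libraries and at 30.3, 17.9, 15.8 and 17.9 CPM in the controls. For both genes control replicate 1 was the highest of all samples, and *Mettl3*-CKO replicate 4 lay within the range of the controls. The log2 fold changes were -0.51 for *Rdh8* (95% confidence interval -1.03 to 0.00, adjusted p = 0.207, edgeR) and -0.68 for *Rdh12* (95% confidence interval -1.20 to -0.15, adjusted p = 0.0966, edgeR). *Rdh12* passed the threshold with DESeq2 (adjusted p = 0.0351), without a filter on low counts (adjusted p = 0.00622) and without *Mettl3*-CKO replicate 4 (adjusted p = 0.0311), where it fell by 0.92 on the log2 scale. Without control replicate 1 its log2 fold change was -0.42, and that of *Rdh8* was -0.25.

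**Figure D1:**
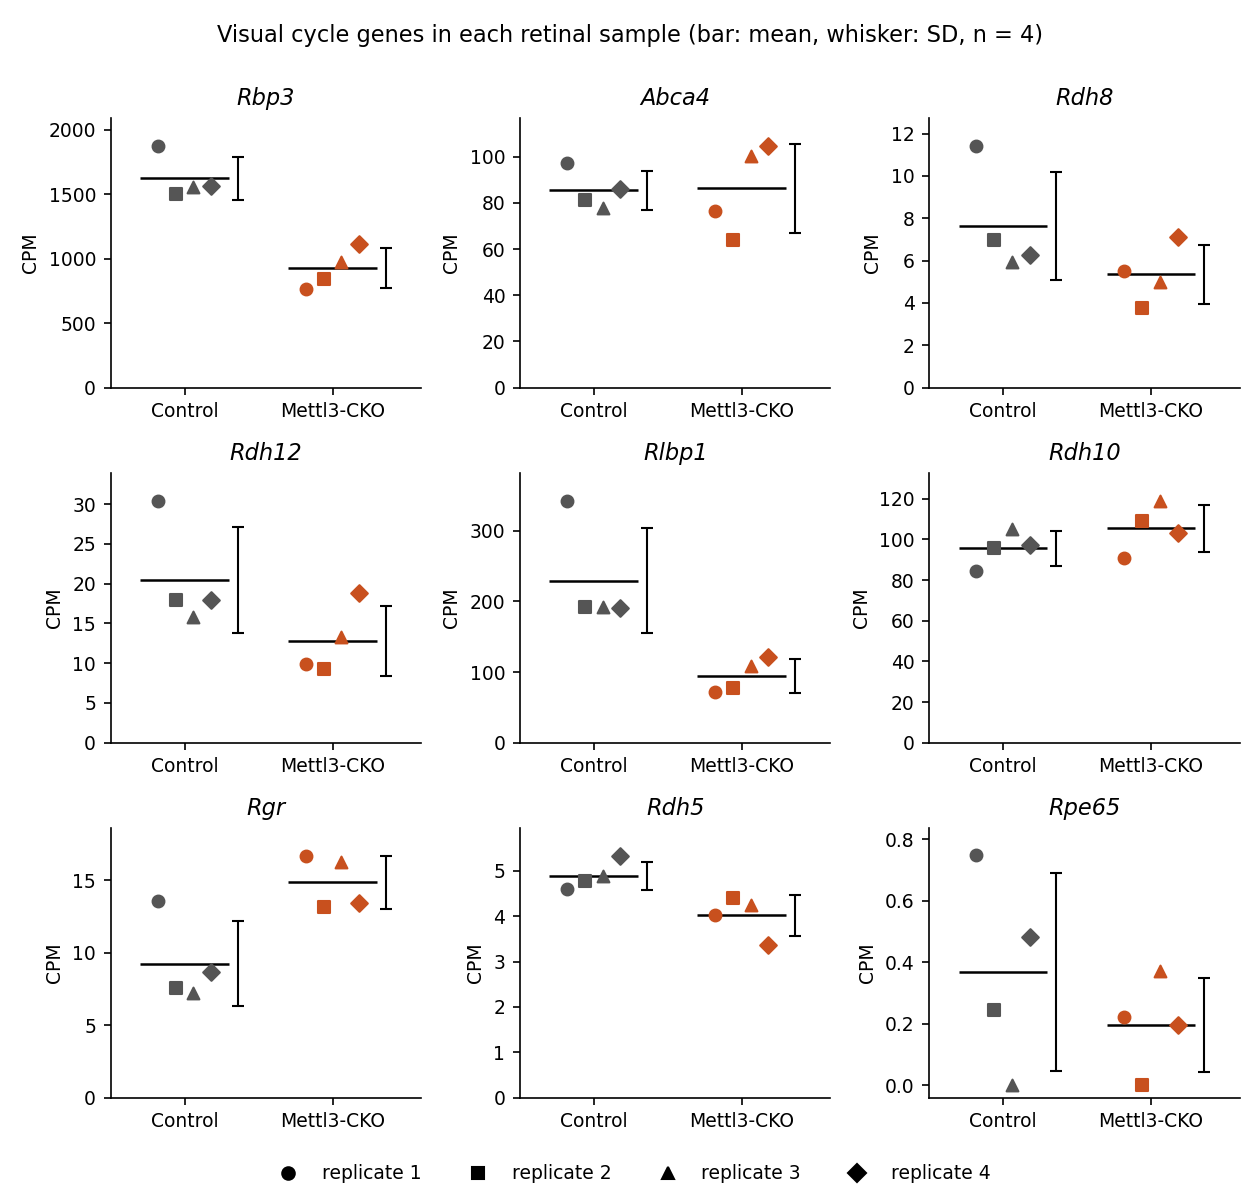
Level of each of the 9 visual cycle genes in CPM (vertical axis from 0, except *Rpe65*, whose axis starts just under 0), with 1 point per sample, the marker shape giving the replicate, a bar at the mean and a whisker of 1 SD (n = 4). Points of the 2 groups do not overlap for *Rbp3*, *Rlbp1* and *Rdh5*, control replicate 1 stands above the other controls for *Rlbp1*, *Rdh8*, *Rdh12* and *Rgr*, and *Rpe65* stays under 0.75 CPM.

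*Rlbp1* lies at chr7:79374870-79387048 on the minus strand (ENSMUSG00000039194). It was at 71.5, 77.4, 108 and 122 CPM in the 4 *Mettl3*-CKO libraries and at 342, 193, 192 and 191 CPM in the controls. Every *Mettl3*-CKO sample was below every control, and 3 of the controls lay within 2 CPM of each other while the fourth, control replicate 1, was far above them. The means were 94.7 ± 24.2 CPM and 229 ± 74.7 CPM (SD, n = 4 each). The log2 fold change was -1.28 with a 95% confidence interval of -1.73 to -0.82 (standard error 0.21, adjusted p = 0.00305, edgeR). Without control replicate 1 it was -1.02 (adjusted p = 0.000273), and *Rlbp1* was called lower in all 8 fits that left out 1 sample.

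*Rgr* lies at chr14:37034909-37048964 on the minus strand (ENSMUSG00000021804). It was at 16.6, 13.2, 16.3 and 13.4 CPM in the 4 *Mettl3*-CKO libraries and at 13.5, 7.59, 7.24 and 8.64 CPM in the controls. The groups overlapped through control replicate 1, while the other 3 controls were below every *Mettl3*-CKO sample. The means were 14.9 ± 1.83 CPM and 9.25 ± 2.92 CPM (SD, n = 4 each), and the log2 fold change was 0.68 with a 95% confidence interval of 0.28 to 1.09 (standard error 0.19, adjusted p = 0.0369, edgeR). The call did not hold when single samples were left out: it was kept in 1 of 8 such fits, the one without control replicate 1 (log2 fold change 0.93, adjusted p = 0.000458), and the adjusted p-value reached 0.124 in the others.

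*Rdh10*, which also makes retinaldehyde for retinoic acid synthesis in the embryo, lies at chr1:16105774-16133734 on the plus strand (ENSMUSG00000025921). It was at 90.8, 109, 119 and 103 CPM in the 4 *Mettl3*-CKO libraries and at 84.4, 95.6, 105 and 97.1 CPM in the controls. The groups overlapped, and this was the member with the narrowest confidence interval, from -0.08 to 0.36 around a log2 fold change of 0.14 (adjusted p = 0.431, edgeR). Here control replicate 1 was the lowest control, not the highest.

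*Rdh5* lies at chr10:128913593-128922888 on the minus strand (ENSMUSG00000025350). It was at 4.04, 4.41, 4.25 and 3.37 CPM in the 4 *Mettl3*-CKO libraries and at 4.601, 4.78, 4.88 and 5.32 CPM in the controls. Every *Mettl3*-CKO sample was below every control, yet the difference was small, with a log2 fold change of -0.29 (95% confidence interval -0.63 to 0.06), and did not pass the test (adjusted p = 0.296, edgeR). *Rdh5* shares exon bases with the neighbouring gene *Bloc1s1* on the same strand, so some of its reads may have been counted elsewhere or not at all. Some reads counted as *Rdh5* may also come from *Bloc1s1*. With *Rdh5*, 3 of the 8 tested genes had groups that did not overlap with *Mettl3*-CKO lower, where 7.58% of all genes tested did, and 0 of 8 did so with *Mettl3*-CKO higher, where 9.77% did.

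*Rpe65*, the isomerase that defines the pigment epithelium, lies at chr3:159599175-159625321 on the plus strand (ENSMUSG00000028174). It had 4, 0, 7 and 4 counts in the *Mettl3*-CKO samples and 14, 4, 0 and 8 counts in the controls. These levels were at most 0.749 CPM, and the gene failed the filter on low counts. A difference was not detectable at this depth, with 15 counts in one group and 26 in the other (adjusted p = 0.637 in the edgeR fit without a filter).

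**Figure D2:**
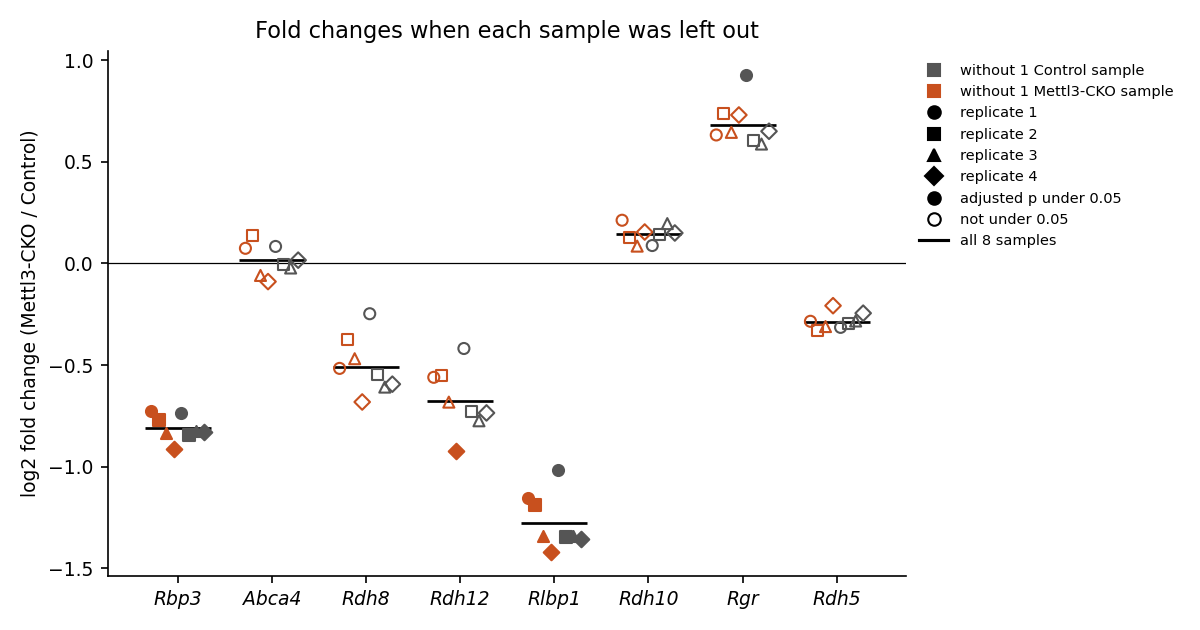
Log2 fold change (*Mettl3*-CKO over control, vertical axis) of the 8 tested genes when each of the 8 samples was left out in turn, coloured by the group of the sample left out, shaped by its replicate number and filled where the adjusted p-value was under 0.05 (edgeR), with a line at the value from all samples. *Rbp3* and *Rlbp1* are filled throughout, *Rgr* only without control replicate 1, *Rdh12* only without *Mettl3*-CKO replicate 4, and *Abca4* lies on both sides of 0.

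Control replicate 1 was the highest control for 6 of the 8 tested genes. Its level divided by the mean of the other 3 controls was 1.78 for *Rlbp1*, 1.78 for *Rdh8*, 1.77 for *Rdh12* and 1.73 for *Rgr*, but 1.21 for *Rbp3* and 1.19 for *Abca4*. The same library held the most rod RNA, with a summed level of 16 rod genes of 6392 CPM, against 3931 to 4561 CPM in the other controls. Its sum of 12 Müller glial genes was also the highest control, at 2526 CPM against 2034 to 2285 CPM. Its sum of 9 progenitor genes was the lowest, at 2175 CPM against 2615 to 2876 CPM. In the *Mettl3*-CKO group replicate 4 was the highest for *Rlbp1*, *Rbp3*, *Rdh8*, *Rdh12* and *Abca4*, and its summed rod level, 3999 CPM, was also the highest of its group, where the lowest was 2269 CPM. The part of these library differences in the results was not tested.

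Compared per length, as CPM per kilobase of the deposited gene length, the genes had the same order in both groups. The levels depend on the length used. The deposited lengths of *Abca4*, *Rdh12* and *Rdh5* are 12022, 2967 and 2809 bases. Their longest coding transcripts have 7263, 1678 and 1258 bases. The order and the shares of genes below with transcript lengths were not examined. In the controls the level was 307 ± 31.4 for *Rbp3*, 77.7 ± 25.3 for *Rlbp1*, 23.0 ± 2.06 for *Rdh10*, 7.11 ± 0.707 for *Abca4*, 6.90 ± 2.24 for *Rdh12*, 5.44 ± 1.81 for *Rdh8*, 1.93 ± 0.610 for *Rgr*, 1.74 ± 0.109 for *Rdh5* and 0.191 ± 0.166 for *Rpe65* (SD, n = 4). *Abca4* and *Rdh12*, *Rdh12* and *Rdh8*, and *Rgr* and *Rdh5* overlapped between controls, and the other neighbours did not. In the *Mettl3*-CKO samples *Rbp3* was at 175 ± 29.2, *Rlbp1* at 32.1 ± 8.18 and *Rdh10* at 25.4 ± 2.81 CPM per kilobase (SD, n = 4). The gap between *Rlbp1* and *Rdh10*, clear in the controls, had thus closed to overlapping ranges, 24.2 to 41.2 for *Rlbp1* and 21.8 to 28.5 for *Rdh10*. On this scale *Rbp3* was above 99.7% of all genes tested in the controls and *Rlbp1* above 97.4%, whereas *Rgr* was above 31.3% and *Rdh5* above 29.7%.

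*Rlbp1* and *Rgr*, both made in Müller glia and pigment epithelium, moved in opposite directions. The ratio of *Rlbp1* CPM to *Rgr* CPM was 25.2, 25.4, 26.6 and 22.1 in control replicates 1 to 4, so control replicate 1, which was high for each gene, had a ratio within the range of the other controls. In the *Mettl3*-CKO samples the ratio was 4.30, 5.88, 6.67 and 9.05, and the means were 6.48 ± 1.98 and 24.8 ± 1.90 (SD, n = 4 each). Every *Mettl3*-CKO sample was far below the controls on this ratio. *Rlbp1* alone already separated the groups, at 122 CPM or less against 191 CPM or more, while they overlapped for *Rgr* alone. The ratio therefore describes both genes together and is no separate test of *Rgr*.

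**Figure D3:**
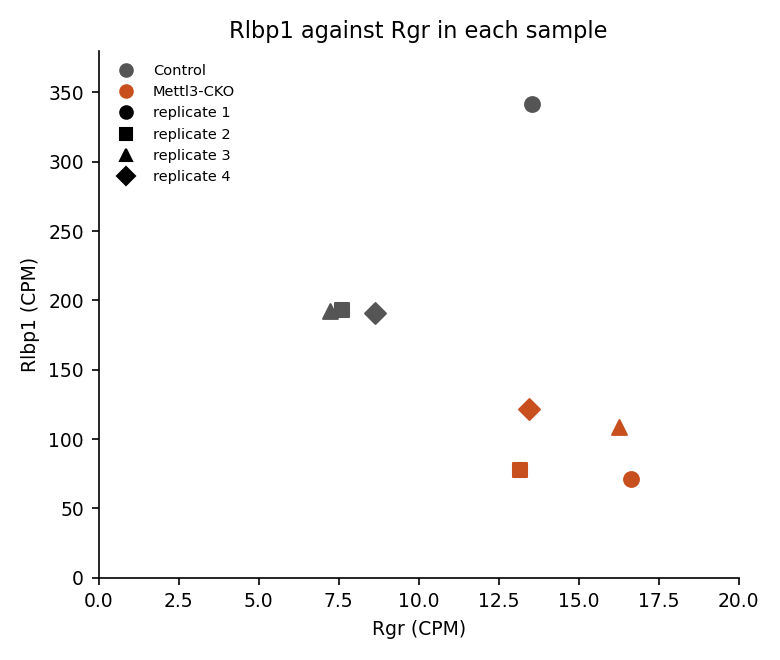
*Rlbp1* (vertical axis, CPM) against *Rgr* (horizontal axis, CPM) in each of the 8 samples, coloured by group and shaped by replicate number. The controls lie along a line of about 22.1 to 26.6 *Rlbp1* CPM per *Rgr* CPM, and the 4 *Mettl3*-CKO samples lie below and to the right, at 4.30 to 9.05.

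The marker genes of the cell types that make these proteins moved unequally. Beside the counts called in each list stand the shares over all genes tested, 4.05% lower and 6.49% higher. Of 10 tested Müller glial genes, 0 were called lower and 1 higher, *Glul*, the glutamine synthetase gene (log2 fold change 0.43, adjusted p = 0.00865, edgeR), and the median was -0.09. Their summed level was 2218 to 2382 CPM in the 4 *Mettl3*-CKO libraries and 2034 to 2526 CPM in the controls. Relative to the mean log2 CPM of those genes, *Rlbp1* was at -0.24 ± 0.35 in *Mettl3*-CKO samples and at 1.02 ± 0.30 in controls (SD, n = 4 each), a difference of -1.26, and *Rgr* was 0.72 higher. The samples of the groups did not overlap for either gene on this relative scale. The study describes Müller glia as keeping part of the expression of progenitors, whose own list had a median of 0.35. Whether the Müller glial list follows Müller glia alone, and the part of progenitor RNA in its level, were not tested. Only *Aqp4* and *Abca8a*, genes of mature Müller glia, failed the filter on low counts in this list.

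The summed level of pigment cell genes was also lower in *Mettl3*-CKO samples. Of 10 tested pigment cell genes, 3 were called lower, the melanin genes *Tyr*, *Tyrp1* and *Pmel*, 0 were called higher, and the median was -0.47. Among all genes tested 4.05% were called lower and 6.49% higher. The summed level of the 12 genes of this list was 68.4 to 88.2 CPM in *Mettl3*-CKO samples and 94.9 to 118 CPM in controls, with no overlap and with no gene of the list at 0 in all samples. *Rlbp1* alone was above the sum of the same library in every control, at 191 CPM or more, and in *Mettl3*-CKO replicates 3 and 4. In *Mettl3*-CKO replicates 1 and 2 it was below that sum, at 71.5 CPM against 74.4 CPM and at 77.4 CPM against 84.5 CPM. *Rpe65* was at or near 0 throughout. Relative to the mean log2 CPM of the list, *Rlbp1* differed by -0.83 with overlapping samples, *Rdh5* by 0.15 with overlapping samples, and *Rgr* by 1.15 with none overlapping. The part of the pigment cell RNA in the levels of *Rlbp1*, *Rdh5* and *Rgr* was not tested.

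Of 16 rod genes, all tested, 8 were called lower and 0 higher, with a median log2 fold change of -0.67, and the summed level was 2269 to 3999 CPM in *Mettl3*-CKO samples and 3931 to 6392 CPM in controls. *Nrl*, the transcription factor that sets rod fate, had a log2 fold change of -0.79 and *Sag*, the rod arrestin gene, one of -0.83. Relative to the mean log2 CPM of the rod list, *Rbp3* differed between the groups by -0.25, *Rdh12* by -0.11 and *Rdh8* by 0.08, each with overlapping samples. *Abca4* differed by 0.56 on that scale, with every *Mettl3*-CKO sample above every control. Among 8 cone genes 2 were called lower and 0 higher with a median of 0.00, and relative to these *Rbp3*, made in rods and cones alike, was 0.71 lower with no overlap. Retinal progenitor genes went the other way, with 3 of 9 called higher, 0 lower and a median of 0.35. These lists were compared by counts and medians only, and no test of a gene against a list was made. Over all genes tested 4.05% were called lower and 6.49% higher.

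**Figure D4:**
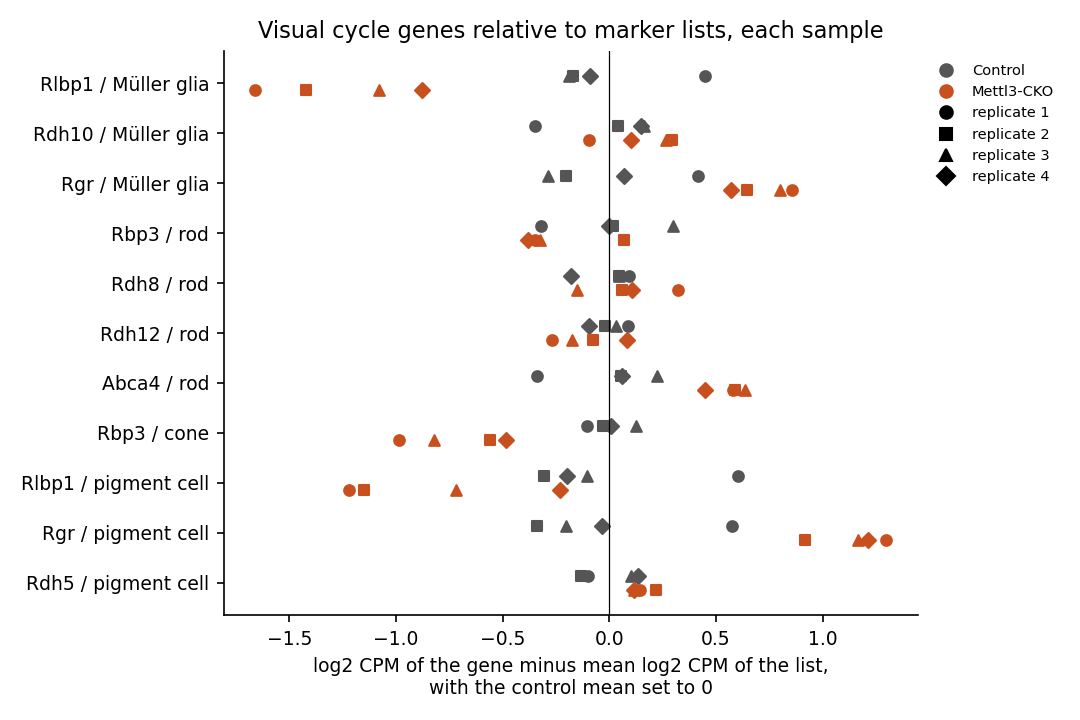
Log2 CPM of a visual cycle gene minus the mean log2 CPM of a marker list in each sample (horizontal axis, shifted so that the control mean is 0), for 11 pairs of gene and list, with 1 point per sample coloured by group and shaped by replicate number. *Rlbp1* sits lower and *Rgr* higher in *Mettl3*-CKO samples relative to the Müller glial list, *Abca4* sits higher relative to the rod list, and *Rbp3*, *Rdh8* and *Rdh12* overlap relative to the rod list.

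Outside the 9 genes, 25 other genes of retinoid uptake, storage and oxidation were listed, of which 15 were tested, 1 was called lower and 2 higher, with a median log2 fold change of 0.25. The shares over all genes tested were 4.05% lower and 6.49% higher, and no test of the list against them was made. The gene called lower was *Ttr*, which encodes transthyretin, the partner of plasma retinol-binding protein. It was at 8.57, 9.51, 13.97 and 9.33 CPM across *Mettl3*-CKO samples and at 25.5, 25.1, 17.8 and 26.05 CPM in controls, without overlap (log2 fold change -1.19, adjusted p = 0.00134, edgeR). The genes called higher were *Rdh14*, a retinol dehydrogenase, at 25.9 to 35.1 CPM against 16.9 to 24.7 CPM (log2 fold change 0.62, adjusted p = 0.0117, edgeR), and *Degs1*, a ceramide desaturase also described as a retinol isomerase (0.53, adjusted p = 0.0443). The number called higher rested on single samples, from 0 without *Mettl3*-CKO replicate 1 to 6 without control replicate 1. *Lrat*, which esterifies retinol in the pigment epithelium, was at 1.03 CPM or less in every sample (adjusted p = 0.192). *Rdh11*, a dehydrogenase of pigment epithelium and photoreceptors, was at 51.0 to 59.2 CPM in *Mettl3*-CKO samples and 37.0 to 51.1 CPM in controls (log2 fold change 0.29, adjusted p = 0.0962).

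Retinoic acid is made from the same retinaldehyde, and of 15 genes for its synthesis, breakdown, binding and reception 14 were tested, 3 called lower and 2 higher, with a median of 0.01. Among all genes tested, 4.05% were called lower and 6.49% higher. *Aldh1a3*, a dehydrogenase that makes retinoic acid, was at 22.1, 20.6, 17.1 and 12.8 CPM across *Mettl3*-CKO samples and at 2.19, 5.69, 5.46 and 5.74 CPM in controls. Every *Mettl3*-CKO sample was more than 2-fold above the highest control, and the log2 fold change was 1.93 (adjusted p = 0.000983, edgeR). *Crabp2*, which carries retinoic acid to its receptors, was also called higher (log2 fold change 0.68, adjusted p = 0.0128). *Cyp26c1*, which breaks retinoic acid down, was called lower (-1.03, adjusted p = 0.0160), as were the receptor genes *Rxra* (-0.39, adjusted p = 0.0304) and *Rxrb* (-0.33, adjusted p = 0.0205). The number called lower was between 0, without *Mettl3*-CKO replicate 1, and 3 when single samples were left out, and the number called higher stayed at 2.

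Opsins hold the chromophore that the cycle restores. Of 7 opsin genes 5 were tested, 0 were called lower and 1 higher, with a median of 0.04. For all genes tested the shares were 4.05% and 6.49%. *Opn1sw* had a log2 fold change of -0.04 (adjusted p = 0.859). The gene called higher was *Opn3*, an opsin expressed widely in brain, at 2.18 to 5.53 CPM against 1.27 to 1.89 CPM (log2 fold change 1.03, adjusted p = 0.0480, edgeR), and it was not called in 4 of the 8 fits that left out 1 sample.

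**Figure D5:**
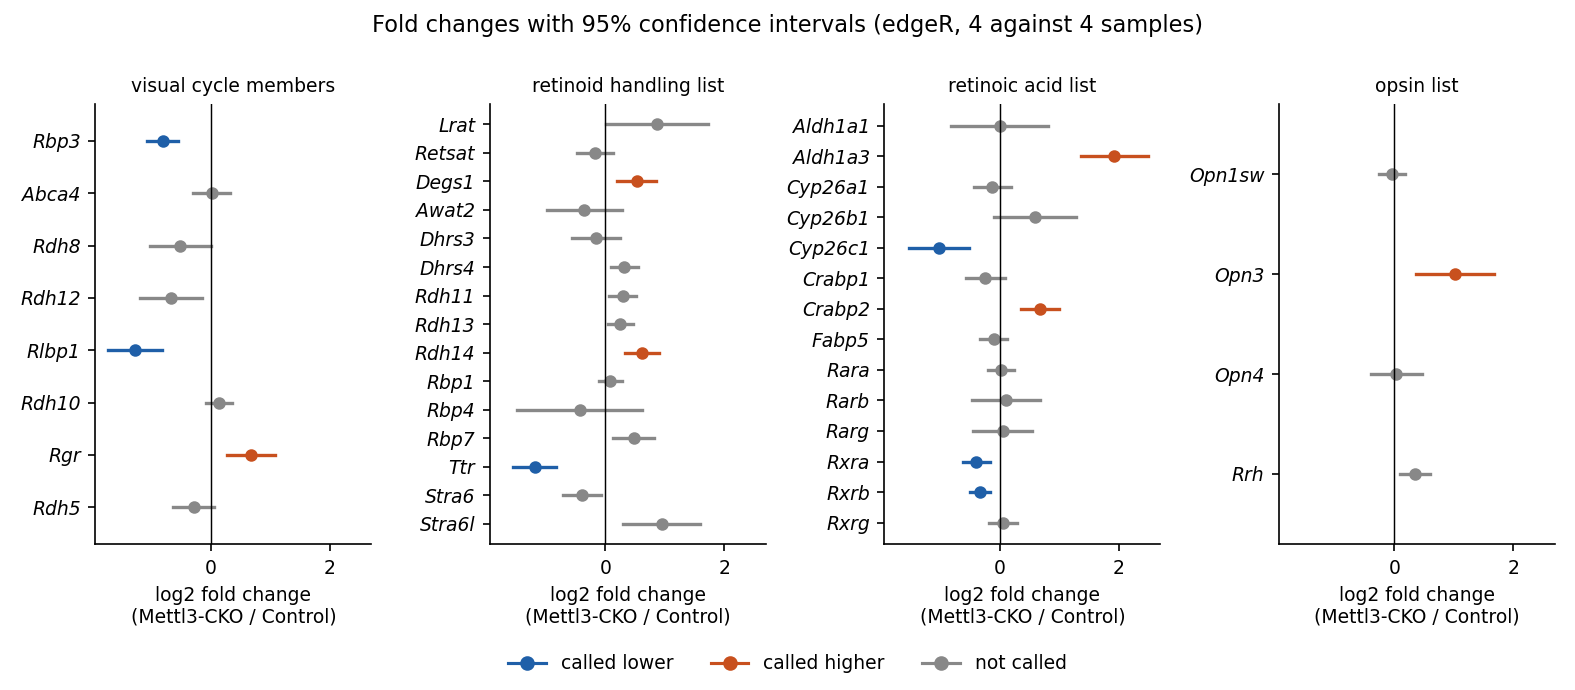
Log2 fold change (*Mettl3*-CKO over control, horizontal axis) with its 95% confidence interval from edgeR for the 8 tested visual cycle genes and for the tested genes of the retinoid handling, retinoic acid and opsin lists (4 of the 5 tested opsin genes are drawn), coloured by call at an adjusted p-value under 0.05. *Aldh1a3* at 1.93 and *Rlbp1* at -1.28 lie farthest from 0 among the genes called.

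For each tested visual cycle gene, the 3 most similar of 14316 genes over the 8 samples were found as those with the smallest mean absolute difference in log2 CPM after each gene's own mean was taken off. *Rlbp1* was nearest to *Pcare* (mean difference 0.0995), *Pde6b* (0.106) and *Anxa2* (0.128), of which *Pcare* and *Pde6b* are photoreceptor genes. *Rdh8* was nearest to *Ano2* (0.0918), *Pdc* (0.0938) and *Rd3* (0.0993), and *Rdh12* to *Prph2* (0.0944), *Rom1* (0.0977) and *Reep6* (0.0981). *Pde6b*, *Pdc*, *Prph2* and *Rom1* are on the rod list. *Rbp3* was nearest to *Klc3* (0.0568), *Ndrg1* (0.0585) and *Hs3st3b1* (0.0638), and *Rgr* to *Ndufaf4* (0.0858), *Rab9* (0.0903) and *Phax* (0.0909). The nearest genes of *Abca4* were *Tcaim* (0.0409), *Zfp365* (0.0747) and *Rab3il1* (0.0799), those of *Rdh10* were *Lin9* (0.0368), *Btg3* (0.0395) and *Nfkbil1* (0.0423), and those of *Rdh5* were *Ints11* (0.0515), *Qtrt1* (0.0603) and *Lama3* (0.0639). All pairs share the same 8 libraries, and the differences describe these samples only. The difference between the groups is part of each pattern, so a gene with a large fold change is matched to others with one. The 3 genes nearest to *Rlbp1* had log2 fold changes of -1.19, -1.09 and -1.06. A near pattern does not show that 2 genes are made in the same cells.

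The m6A writer acts mostly on an adenosine within the word GGACT and its variants. The longest coding transcript of each gene (GENCODE M21) held between 1 copy of GGACT, in *Rdh5* and *Rdh12*, and 9 copies, in *Rbp3* and *Rgr*. Per kilobase of transcript the density was 0.934 for *Rlbp1*, 1.70 for *Rbp3*, 1.91 for *Rgr*, 2.15 for *Rpe65*, 1.42 for *Rdh8*, 0.836 for *Rdh10*, 0.826 for *Abca4*, 0.795 for *Rdh5* and 0.596 for *Rdh12*. The median over 21874 coding genes was 1.01, with quartiles of 0.560 and 1.504. The gene called higher and one of the genes called lower were thus both above the upper quartile, and the gene with the largest fall, *Rlbp1*, was just under the median. The count of a word does not show that a transcript carries m6A, and m6A was not measured in these samples. The study mapped m6A by immunoprecipitation in pooled RNA of other retinas, and that map was not used here.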

How the data were processed

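RNA-seq of 4 *Mettl3*-CKO and 4 control retinal samples was analysed. According to the methods, total RNA was extracted with TRIzol, libraries were made with the NEBNext Ultra kit, and the authors aligned filtered reads to GRCm38 by Hisat2 and assigned them to genes by featureCounts. The annotation release and use of strand are not given in the sources used here. The values the authors deposited are raw counts per gene. Genes were kept by filterByExpr (17998 of 54532), normalized by TMM, and the quasi-likelihood test of edgeR 4.0.16 was run in R 4.3.3, with Benjamini-Hochberg adjustment over all genes tested and a threshold of 0.05. Standard errors are the absolute log2 fold change over the square root of F. Log2 CPM used a prior count of 2. DESeq2 1.42.0, limma 3.58.1 (voom with quality weights), other scalings and filters, a replicate block and leaving out each sample were alternatives. The edgeR step was tested on simulated data. The most similar pair of samples of one group differed by a chi-square of 5.47 per gene, so none were merged. The floor of 3 counts covers counting error only, whereas the 95% confidence intervals from edgeR include the spread between replicates.

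The 9 genes, the lists and the tests were chosen with earlier results of these data known. Named were the 9 genes, *Mettl3*, genes of the retinoid handling, retinoic acid and opsin lists past the threshold and up to 3 that were not, up to 3 genes of a cell type list, and the 3 nearest patterns. The values of 1 opsin gene are not reported here. Lists of lens, endothelial and erythrocyte genes had 4 of 7, 6 of 8 and 2 of 3 tested genes called lower and 0 called higher. The shares over all genes tested were 4.05% and 6.49%. The lens sum was 4478 CPM in control replicate 4. In control replicates 2 and 3 it was 8.51 and 4.56 CPM, near the 5.04 to 20.1 CPM of the *Mettl3*-CKO samples.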

Additional observations from a re-analysis of the deposited data

Results flagged for a closer look

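In control replicate 1 *Rlbp1* was at a log2 CPM of 8.42, while the other 3 controls lay between 7.58 and 7.59, so that the gap to the nearest control took up nearly the whole range of the group. In the same sample the mean log2 CPM of the endothelial list was 3.88, against 2.61 to 2.79 in the other controls. Both exceeded Dixon's 95% critical value for 4 samples. Of 32 groups tested this way 2 exceeded it, where chance gives about 1.6. *Rlbp1* was called lower in *Mettl3*-CKO retinas with and without this sample.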

How the results depend on the processing

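*Rlbp1* and *Rbp3* were called lower under each of the 16 other settings, 8 of which left out 1 sample, with log2 fold changes of -1.42 to -1.02 and -0.91 to -0.72 over the samples left out. *Rgr* was called in the 8 settings that kept all samples and ranged from 0.59 to 0.93 when 1 was left out. *Rdh12* passed with DESeq2 (-0.68) and without a filter (-0.67) and ranged from -0.92 to -0.42 over the samples left out. *Abca4*, never called, ranged from -0.0895 to 0.136 over the samples left out and turned to -0.0075 with the replicate block. With 1 sample left out, the 9 genes gave 2 to 3 called lower and 0 to 1 higher, the retinoid handling list 0 to 6 higher, the retinoic acid list 0 to 3 lower, the opsin list 0 to 1 lower and 0 to 1 higher, and all genes 185 (without *Mettl3*-CKO replicate 1) to 1289 (without control replicate 1) lower and 509 to 1882 higher in the same order, against 729 lower and 1168 higher with all samples. The retinoid handling list had 4 called higher with DESeq2 and 6 with limma voom, against 2. The opsin list had 1 called lower without a filter, against 0, and 2 called higher with DESeq2 and 2 with limma voom, against 1. Limma voom called 1568 of all genes lower and 2142 higher.

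Samples with the same replicate number did not deviate together throughout (correlations of -0.111, 0.215, -0.114 and 0.249), so the numbers were not taken to pair samples. With the replicate block, 660 of all genes were called lower and 1198 higher, the opsin list had 0 called higher, and *Rgr* was at 0.72 (adjusted p = 0.0190, edgeR). The causes of these shifts were not tested. Depth limits *Rpe65* most, with 41 counts in all.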
